A study of Homo sapiens with 2 samples.

Results

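The genes described here carry out the detection, signalling and repair of DNA damage, and they were compared between SUDHL6 and HT, a pair of established human lines of diffuse large B cell lymphoma. The list held 56 genes in 10 roles, and 45 of them had a value of their own among the 14232 genes with 1 value. A gene had a value where a probe set of the array named that gene and no other, and the probe set with the highest mean of both arrays was taken. Each line was represented by 1 exon array hybridised with labelled total RNA, per the labels, so no difference could be set against a spread between replicates and no test was made. Neither line was treated, both were cultured in RPMI medium supplemented with serum and antibiotics, and they served as baseline samples for work on an inhibitor of Polycomb repressive complex 2. Each is a single long-cultured cell line, and the labels give no genotype or mutation for either.

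Cells answer a DNA break by activating the kinases ATM, ATR and DNA-PK, which phosphorylate the histone H2AX around the break, halt the cell cycle through CHEK1 and CHEK2 and stabilise p53. Breaks are then joined directly (end joining) or copied from the sister chromatid (homologous recombination), while crosslinks, mispaired bases, damaged bases and bulky lesions have pathways of their own. Germinal centre B cells, the normal counterpart of many diffuse large B cell lymphomas, cut and mutate their own antibody genes, and they use UNG, the mismatch repair proteins and end joining to do so.

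Expression is given on the log2 scale, as the authors deposited it. The values come from RMA, which removes background signal, brings arrays to a common distribution and combines a probe set's probes into a single number. A difference is the value in SUDHL6 minus the value in HT, so a difference of 1 is a 2-fold change. The level of unexpressed genes was taken from 225 olfactory receptor genes, whose 95th percentile (the dim level) was 3.81 in SUDHL6 and 4.11 in HT. Genes were counted as different at a difference of 1 or more in either direction, provided that the line with the higher value lay at or above its dim level. The differences of the olfactory receptor genes, most of them dim, lay between -1.03 and 1.26 in the central 95%. A difference close to 1 is therefore about as large as the scatter of dim genes.

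Both lines had the profile of B cells. All 7 B cell markers measured lay over the dim level, with differences from -0.63 to 2.59. MS4A1, which encodes CD20, stood at 11.33 in SUDHL6 and 8.75 in HT. The 3 germinal centre markers with a value also reached it, among them BCL6 (8.10 in SUDHL6 and 8.90 in HT) and MME (8.89 in SUDHL6 and 8.39 in HT). Of the T cell, myeloid and epithelial markers, 1 of 5, 1 of 4 and 1 of 4 reached it, and none of these differed by at least 1. In SUDHL6, CD5 and CD3G stood at 3.84 and 2.78, CD68 and CSF1R at 5.53 and 3.53, and KRT19 and KRT18 at 4.48 and 3.56. In HT, the same genes stood at 3.77 and 3.05, 5.95 and 3.45, and 4.53 and 3.85.

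Most of the repair genes differed by less than 1 between the lines, 38 of the 42 that reached the dim level. The same held for 8250 of all 9405 genes that reached it. GADD45A was the one member higher in SUDHL6 by at least 1, and TP53BP1, RAD51C and FANCB were the 3 higher in HT. They make up 2.22% and 6.67% of the 45 members. By the same rule 3.50% of all 14232 genes stood higher in SUDHL6 and 4.62% in HT, so both shares lay near those of all genes. In either direction, 4 of the 45 members differed, against 8.12% of all genes. The line with the higher value was at or above its dim level for 42 of the 45 members and for 9405 of all genes. The count for HT depended on the scaling of the arrays: after quantile normalization or loess it was 1, namely RAD51C. The count for SUDHL6 remained 1. Over all genes the count for HT fell from 657 to 568 and 562 under these scalings. That for SUDHL6 rose from 498 to 576 and 584.

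**Figure D1:**
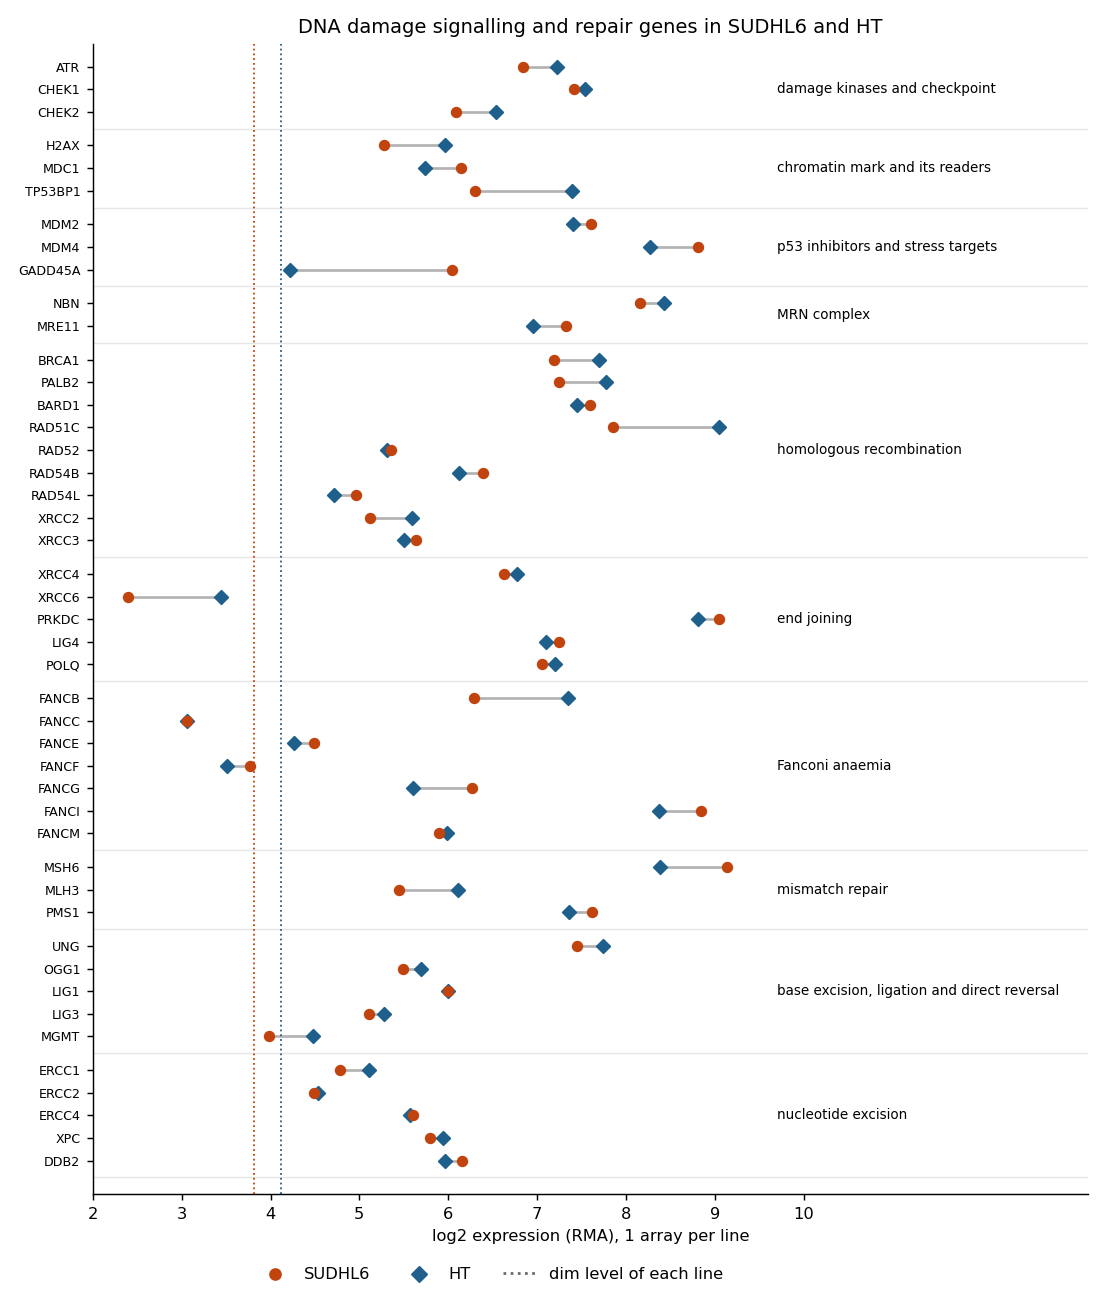
Log2 expression of the 45 members with a value in SUDHL6 (circles) and HT (diamonds), 1 array per line, grouped by role. Dotted lines mark the dim level of each line, 3.81 for SUDHL6 and 4.11 for HT. GADD45A, RAD51C, TP53BP1, FANCB and the dim XRCC6 have the symbols furthest apart.

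The median difference of the members was -0.04, as was that of all genes. Among genes that reached the dim level, the 25th and 75th percentiles were -0.37 and 0.23 for the members and -0.38 and 0.22 for all genes. Of these 42 members, 31 (73.8%) differed by less than 0.5, against 67.4% of all genes that reached the level. In sign, 20 members were higher in SUDHL6 and 23 in HT (23 and 22 after quantile normalization). LIG1 and FANCC had exactly the same value on both arrays, as did 541 of all 14232 genes. At a threshold of 0.5, 4 members were higher in SUDHL6 (8.66% of all genes) and 7 in HT (12.9% of all genes).

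**Figure D2:**
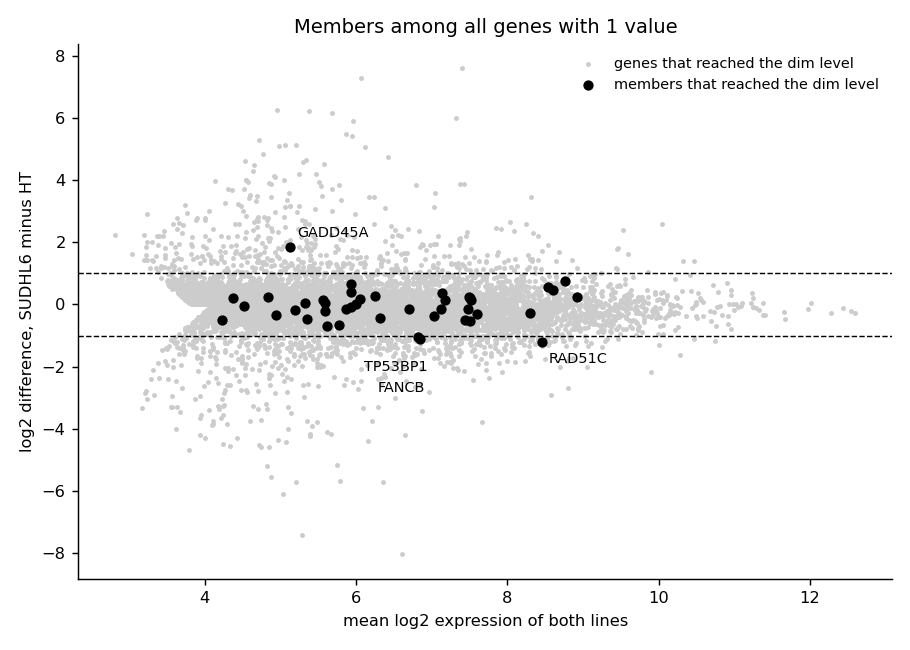
Difference (SUDHL6 minus HT, log2) against the mean log2 expression of both lines for the 9405 genes that reached the dim level (grey) and the 42 members among them (black). Dashed lines mark a difference of 1 either way. Most members lie inside the band, 1 (GADD45A) above it and 3 (TP53BP1, RAD51C and FANCB) below it.

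The promoters of 3 members that differed are shown because these genes were higher in the same line and lie on different chromosomes. Each is a window of 300 bases around the RefSeq transcription start (GRCh38.p14), written 5′ to 3′ in the direction of the gene, and the first listed window was taken where a gene has several. Capitals mark GGGCGG (the GC box bound by Sp1), CCAAT (bound by NF-Y), TGACGTCA (the cyclic AMP response element) and TTTCCCGC (a site of the E2F factors that drive S phase genes), searched on both strands.
TP53BP1, chr15:43510591-43510890, minus strand: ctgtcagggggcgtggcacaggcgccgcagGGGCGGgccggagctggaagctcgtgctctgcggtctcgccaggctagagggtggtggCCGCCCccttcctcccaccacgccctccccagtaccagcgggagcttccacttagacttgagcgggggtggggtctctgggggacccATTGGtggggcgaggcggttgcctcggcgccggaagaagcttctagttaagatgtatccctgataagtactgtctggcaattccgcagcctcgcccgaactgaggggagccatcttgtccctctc
RAD51C, chr17:58692323-58692622, plus strand: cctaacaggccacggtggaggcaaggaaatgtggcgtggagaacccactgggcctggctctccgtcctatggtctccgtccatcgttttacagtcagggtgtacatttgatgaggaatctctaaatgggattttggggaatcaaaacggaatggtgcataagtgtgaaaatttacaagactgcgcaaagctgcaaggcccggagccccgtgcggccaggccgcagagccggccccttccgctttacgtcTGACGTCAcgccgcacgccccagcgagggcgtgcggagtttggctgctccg
FANCB, chrX:14873020-14873319, minus strand: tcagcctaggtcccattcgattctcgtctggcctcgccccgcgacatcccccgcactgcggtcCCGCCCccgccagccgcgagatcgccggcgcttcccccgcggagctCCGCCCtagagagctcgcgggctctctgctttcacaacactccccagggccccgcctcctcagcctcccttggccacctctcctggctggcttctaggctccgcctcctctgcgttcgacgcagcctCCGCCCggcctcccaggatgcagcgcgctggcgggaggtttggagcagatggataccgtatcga
The TP53BP1 window held 2 GC boxes and 1 CCAAT box, the RAD51C window 1 cyclic AMP response element, and the FANCB window 3 GC boxes. Of 35116 promoter windows of the same length, 45.0% hold a GC box, 34.6% a CCAAT box, 1.85% a cyclic AMP response element and 1.63% the E2F letters. The 3 windows had no motif in common to all of them, and the E2F letters were in none. A match describes the letters and does not show binding.

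GADD45A, a growth arrest gene that p53 and other stress pathways induce, differed most among the members. It stood at 6.05 in SUDHL6 and 4.22 in HT, where it was just above the dim level. The difference was 1.83, a 3.56-fold higher value in SUDHL6, and 200 of the 9405 genes (2.13%) lay as far or further in that direction. Its 5 nearest genes with a value on each side on chromosome 1 had a median difference of 0.05, from -0.89 to 0.29, and 0 of the 10 differed by the rule. Of these, 7 were dim on both arrays, so only MIER1 (-0.06), SLC35D1 (0.17) and DEPDC1 (-0.43), the 3 that reached the dim level, could be read beside GADD45A.

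The p53 inhibitors were closer together. MDM2, the ubiquitin ligase that degrades p53 and is itself a p53 target, stood at 7.61 in SUDHL6 and 7.40 in HT. MDM4, its partner and an inhibitor of p53 activity, stood at 8.81 in SUDHL6 and 8.27 in HT and so differed by 0.55. The damage sensor DDB2 and the lesion recognition gene XPC, both p53 targets in human cells, differed by 0.19 and -0.15. Only GADD45A among these 5 members differed by at least 1.

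The promoters of 2 members held a p53 full site and are shown for comparison with these values. A full site was taken as a pair of p53 half-sites with 0 or 1 bases between them, with the central C and G of each half-site in place and at most 2 mismatches in all. Capitals mark the matches, which overlap in DDB2. Such a site was found in 187 of the 35116 windows (0.533%), and in windows of 2 of the 50 members that had a promoter window. These 50 members had 73 windows, so the share of windows and the count of members are in unlike units. The promoter of GADD45A was not analysed here.
MDM2, chr12:68808767-68809066, plus strand: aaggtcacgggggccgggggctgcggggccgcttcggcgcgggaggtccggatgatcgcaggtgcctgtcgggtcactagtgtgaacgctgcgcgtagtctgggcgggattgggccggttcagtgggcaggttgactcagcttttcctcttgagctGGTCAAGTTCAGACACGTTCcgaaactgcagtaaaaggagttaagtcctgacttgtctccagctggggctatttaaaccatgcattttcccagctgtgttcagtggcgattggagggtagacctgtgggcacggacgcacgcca
DDB2, chr11:47214724-47215023, plus strand: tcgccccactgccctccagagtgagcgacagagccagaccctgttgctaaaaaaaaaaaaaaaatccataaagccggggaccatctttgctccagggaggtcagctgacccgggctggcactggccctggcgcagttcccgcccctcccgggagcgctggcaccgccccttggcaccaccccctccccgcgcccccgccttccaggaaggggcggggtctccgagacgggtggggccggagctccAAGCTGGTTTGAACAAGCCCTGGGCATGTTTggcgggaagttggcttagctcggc
The DDB2 site matched with 0 mismatches and 1 base between its half-sites, and the MDM2 site with 2 mismatches and none between. The MDM2 window is that of an internal start site, from which p53 is known to drive the gene. Both genes differed by less than 1 between the lines.

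Other p53 target genes, from a list of 22, were read in the same way. Of 18 with a value, 14 reached the dim level, against 9405 of all 14232 genes. By at least 1, 2 (11.1%) were higher in SUDHL6 and 0 in HT, against 3.50% and 4.62% of all genes. The median difference was 0.21, against -0.04 for all genes. POLH, the translesion polymerase that copies past ultraviolet damage and that also mutates antibody genes, stood at 9.34 in SUDHL6 and 7.94 in HT, 2.63-fold higher in SUDHL6. PMAIP1, which encodes the pro-apoptotic protein NOXA, stood at 7.66 in SUDHL6 and 6.50 in HT, 2.24-fold higher. CDKN1A, the cell cycle inhibitor p21 and a main target of p53, stood at 5.04 in SUDHL6 and 5.07 in HT. It was added to the named genes after its value was seen.

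None of the 3 damage kinase and checkpoint genes with a value differed by 1, and ATR, CHEK1 and CHEK2 each had a value less than 0.5 lower in SUDHL6. ATR, the kinase of stalled replication forks, stood at 6.84 in SUDHL6 and 7.22 in HT. Its target kinase CHEK1 stood at 7.41 in SUDHL6 and 7.54 in HT, and CHEK2, the kinase below ATM, at 6.09 in SUDHL6 and 6.54 in HT. CHEK1 differed by -0.13 as deposited and by -0.0038 after loess. PRKDC, the further damage kinase, described with end joining, had the higher value in SUDHL6. A probe set that CHEK2 shares with HSCB held the same value, 5.25, on both arrays. ATM itself had no value of its own. A pair of probe sets shared with its neighbour NPAT, with values from 8.35 to 9.05, differed by 0.00081 and -0.39. One shared with C11orf65 stood at 2.95 in SUDHL6, under the dim level, and at 4.45 in HT, little above it. The shared probe sets did not give one answer for ATM, and the one furthest apart was near the dim level.

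**Figure D3:**
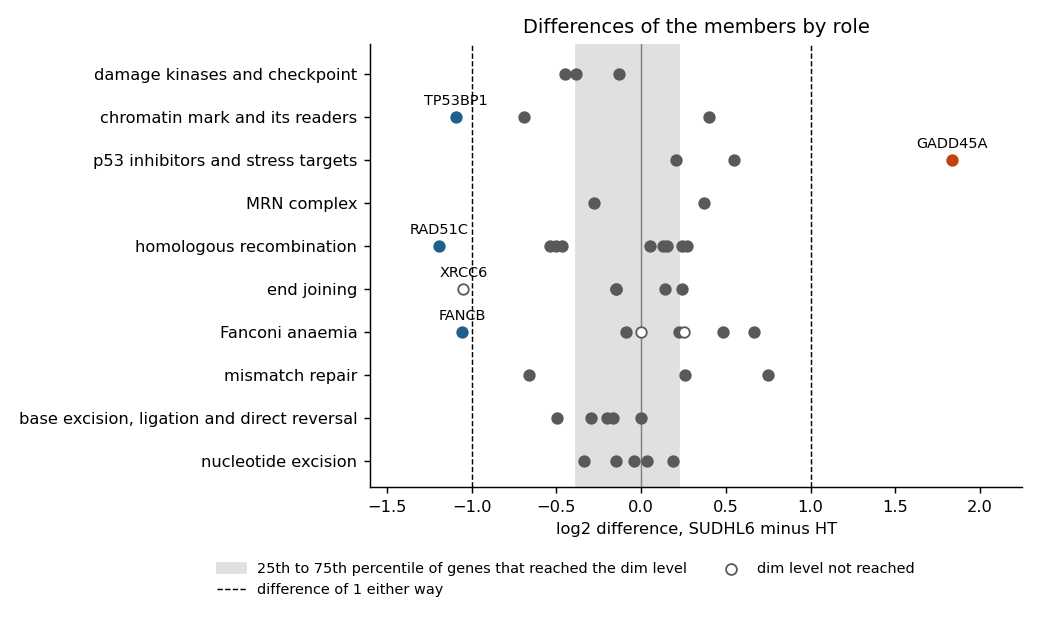
Log2 difference (SUDHL6 minus HT) of each member by role. Filled points reached the dim level and open points did not. The grey band runs from -0.38 to 0.22, the 25th to 75th percentile of all genes that reached the dim level, and dashed lines mark a difference of 1. TP53BP1, RAD51C and FANCB lie just past -1, and GADD45A lies at 1.83.

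TP53BP1 was lower in SUDHL6 among the genes of the chromatin mark. It encodes 53BP1, which binds marked chromatin, protects broken ends from resection and is needed for antibody class switching. TP53BP1 stood at 6.30 in SUDHL6 and 7.40 in HT and so differed by -1.09 (2.14-fold higher in HT), and 557 of the 9405 genes (5.92%) lay as far or further in that direction. The difference was -0.996 after quantile normalization and -0.96 after loess, and neither counted as 1. Its 10 neighbours on chromosome 15 ran from -0.85 to 0.34 with a median of -0.14. Of these, 7 reached the dim level and 0 differed by the rule.

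The other chromatin genes were under 1. H2AX, the histone variant that carries the damage mark, stood at 5.28 in SUDHL6 and 5.97 in HT. MDC1, the adaptor that reads the mark, stood at 6.14 in SUDHL6 and 5.74 in HT. H2AX and TP53BP1 thus had lower values in SUDHL6 and MDC1 a higher one. RIF1, the partner of 53BP1 in protecting ends and a gene of a further list, was on the opposite side from TP53BP1, at 6.76 in SUDHL6 and 5.76 in HT, 2.002-fold higher in SUDHL6.

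The MRN complex, which senses and trims broken ends, showed no difference of 1. NBN, which recruits ATM, stood at 8.16 in SUDHL6 and 8.43 in HT. MRE11, its nuclease, stood at 7.32 in SUDHL6 and 6.96 in HT. RAD50 had only a probe set shared with CARINH, which differed by 0.30.

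Among homologous recombination genes, RAD51C was the exception. RAD51C, which acts early in recombination on resected DNA ends, stood at 7.86 in SUDHL6 and 9.05 in HT. The difference was -1.19, 2.29-fold higher in HT, and 470 of the 9405 genes (4.997%) lay as far or further. It stayed past 1 under each scaling, between -1.19 and -1.09. The 10 neighbours of RAD51C on chromosome 17 ran from -0.97 to 0.76 with a median of -0.12, and 7 reached the dim level, of which 0 differed by the rule.

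The other 8 recombination genes with a value differed by less than 1, and 5 of the 9 in all had a higher value in SUDHL6. BRCA1 stood at 7.19 in SUDHL6 and 7.69 in HT, and PALB2, which links it to BRCA2, at 7.24 in SUDHL6 and 7.78 in HT. BARD1, the ubiquitin ligase partner of BRCA1, stood at 7.60 in SUDHL6 and 7.45 in HT, so the partners BRCA1 and BARD1 differed in sign. XRCC2 and XRCC3, which also act in recombination, differed by -0.47 and 0.13. RAD52, a strand annealing protein, and the DNA translocases RAD54B and RAD54L differed by 0.05, 0.27 and 0.24.

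The 4 end joining genes that reached the dim level had differences between -0.15 and 0.24. PRKDC, the DNA-PK kinase itself, stood at 9.05 in SUDHL6 and 8.81 in HT. LIG4 and XRCC4, which form the ligase complex, differed by 0.14 and -0.15, and POLQ, the polymerase of microhomology-mediated joining, by -0.15. XRCC6, which encodes the Ku70 subunit that encircles broken ends, stood at 2.39 in SUDHL6 and 3.44 in HT. Both values were below the dim level, so its difference of -1.05 was not counted. Ku70 is an abundant protein of growing cells, so a value below the dim level here does not show that the gene was silent. XRCC5, its Ku80 partner, had only a probe set shared with LINC01963, at 9.46 in SUDHL6 and 9.60 in HT.

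FANCB was lower in SUDHL6 among the Fanconi anaemia genes, whose proteins unhook crosslinked DNA. FANCB is a subunit of the core ubiquitin ligase complex and is encoded on chromosome X. FANCB stood at 6.29 in SUDHL6 and 7.35 in HT and so differed by -1.06 (2.08-fold higher in HT), and 591 of the 9405 genes (6.28%) lay as far or further. The difference was -0.95 after quantile normalization and -0.93 after loess. FANCB was the one differing member with neighbours that differed by the rule in the same direction. RAB9A (-1.20) and MOSPD2 (-1.13) were also higher in HT. The median of its 10 neighbours, 5 of which reached the dim level, was -0.27. Of the 10, 7 had a lower value in SUDHL6, as did 7 of the 10 beside TP53BP1 and beside RAD51C. Over all 14232 genes, 7534 had a lower value in SUDHL6. The neighbours were read as deposited only, without the other scalings. Among the FANCB neighbours that were dim on both arrays, GPM6B differed by -1.003 and PIR by 1.26.

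**Figure D4:**
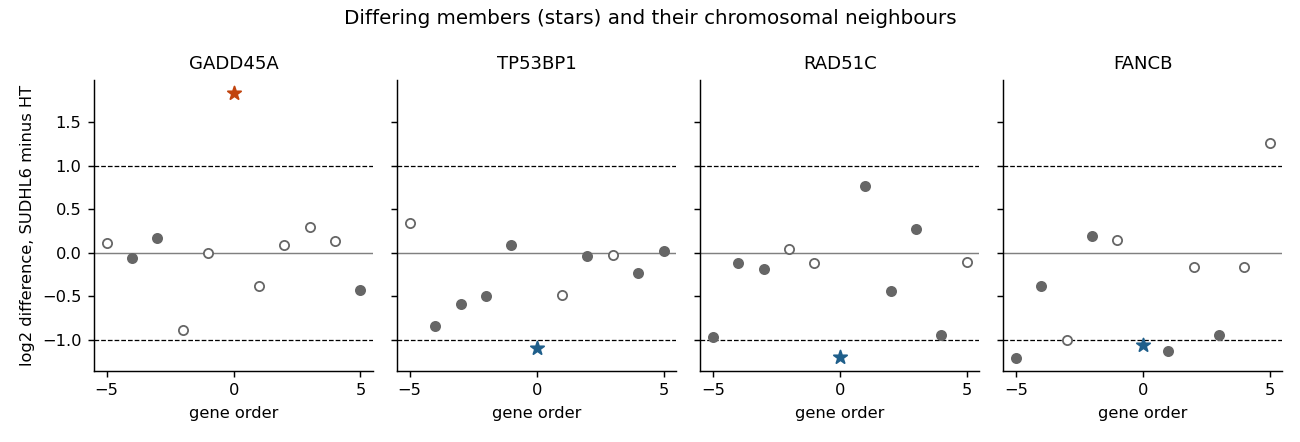
Log2 difference (SUDHL6 minus HT) of the 4 members that differed by at least 1 (stars) and of the 5 nearest genes with a value on each side, in RefSeq gene order. Filled circles reached the dim level, open circles did not, and dashed lines mark a difference of 1. GADD45A has 3 filled neighbours, all inside the dashed lines, and FANCB has 5, of which 2 lie past -1.

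The other Fanconi anaemia genes with a value differed by less than 1. FANCI, which is clamped on DNA with FANCD2 after ubiquitination, stood at 8.85 in SUDHL6 and 8.37 in HT, and of 2 probe sets shared with POLG one differed by 0.40 and the other held 5.02 on both arrays. FANCG, also of the core complex, stood at 6.27 in SUDHL6 and 5.60 in HT. FANCM, the translocase that anchors the core complex, differed by -0.09, which turned positive after quantile normalization and loess. FANCE differed by 0.22, while FANCC (3.06 on both arrays) and FANCF (3.77 in SUDHL6 and 3.51 in HT) did not reach the dim level. FANCL, the ligase subunit, had only a probe set shared with VRK2, which differed by 0.53.

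In mismatch repair, MSH6, which recognises mispaired bases, stood at 9.13 in SUDHL6 and 8.39 in HT and so differed by 0.75. MLH3, a MutL protein, stood at 5.45 in SUDHL6 and 6.11 in HT, and PMS1, another MutL protein, at 7.62 in SUDHL6 and 7.36 in HT. MLH3 was thus the one of these 3 with a lower value in SUDHL6, and 0 of 3 differed by at least 1. PMS2 had only a probe set shared with the pseudogene PMS2CL, which differed by 0.44 and belongs to both.

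In base excision and ligation, UNG, which removes uracil from DNA also after the antibody gene deaminase has acted, stood at 7.44 in SUDHL6 and 7.74 in HT. OGG1, the glycosylase of oxidised guanine, differed by -0.20, and the ligases LIG1 and LIG3 by 0.00 and -0.17. MGMT, which removes alkyl groups from guanine in a single step, stood at 3.98 in SUDHL6 and 4.48 in HT, in both lines little above the dim level. Of the 5 genes with a value, 4 were lower in SUDHL6 and 1 was equal, all by less than 0.5. XRCC1, the scaffold of single-strand break repair, had only a probe set shared with IRGQ, which differed by -0.23.

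All 5 nucleotide excision genes measured lay over the dim level, and their differences ran from -0.33 to 0.19. ERCC1 and ERCC4, which form the nuclease that cuts 5′ of the lesion, differed by -0.33 and 0.03, and the helicase gene ERCC2 by -0.04. ERCC1 shares a second probe set with POLR1G (-0.38), and ERCC2 shares one with KLC3 (0.29), whose sign is opposite to that of its own. XPA, the scaffold of the incision complex, had only a probe set shared with NCBP1, which differed by -0.44. BRCA2, FANCA, FANCD2 and MSH3 were not analysed here.

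Other DNA repair genes, 73 in 6 lists, were set beside the members. Of 53 with a value, 52 reached the dim level, against 9405 of all 14232 genes. By at least 1, 4 (7.55%) were higher in SUDHL6 and 2 (3.77%) in HT, against 3.50% and 4.62% of all genes. Genes under the dim level could not be counted, so these shares have unlike bases. The median difference was -0.02, against -0.04 for all genes. WRN, the helicase and exonuclease lost in Werner syndrome, stood at 6.35 in SUDHL6 and 7.82 in HT, 2.77-fold higher in HT. POLB, the gap-filling polymerase of base excision, stood at 5.56 in SUDHL6 and 6.69 in HT, 2.19-fold higher in HT. NEIL3, a glycosylase that also unhooks crosslinks, stood at 8.02 in SUDHL6 and 6.89 in HT, 2.20-fold higher in SUDHL6.

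The gene lists around replication and end processing were mostly under 1. Among checkpoint and fork protection genes, RIF1 was the 1 of 12 that differed, and among translesion genes POLH was the 1 of 9. By the same rule 8.12% of all genes differed in either direction, so such low counts are not particular to these lists. Of 7 end processing genes, 0 differed by at least 1, with the phosphodiesterase genes TDP2 at 8.83 in SUDHL6 and 8.48 in HT and TDP1 at 7.51 in SUDHL6 and 7.82 in HT. APOBEC3C, a cytidine deaminase with closely similar family members, was the one gene of the class switch and hypermutation list with a value. Its value was 4.92 in SUDHL6 and 3.03 in HT, which set against the dim level of HT is at least 1.74-fold higher in SUDHL6.

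**Figure D5:**
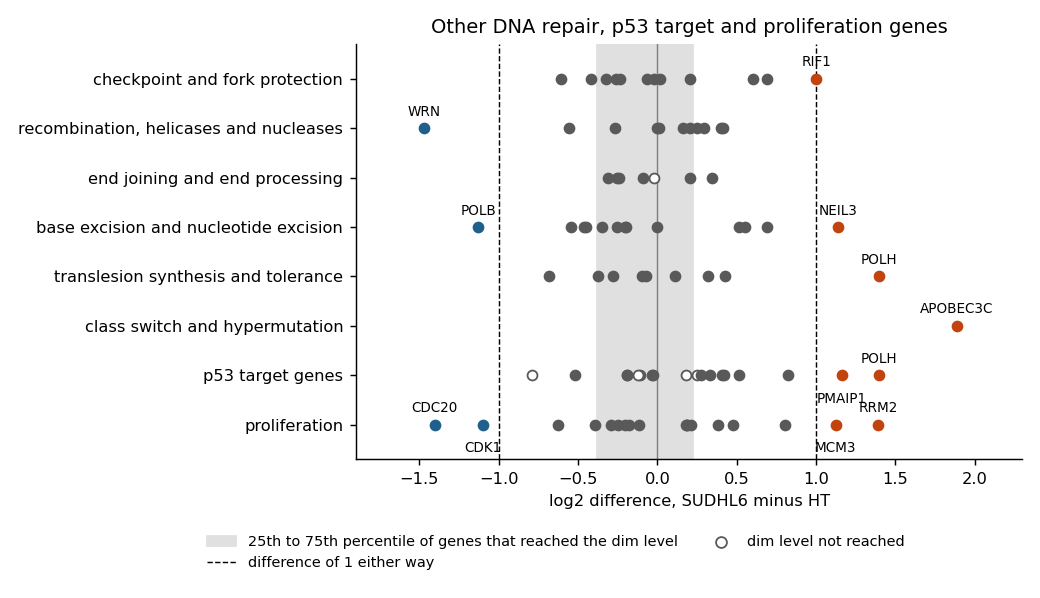
Log2 difference (SUDHL6 minus HT) of repair genes outside the member list, p53 target genes and proliferation genes, by list. The grey band runs from -0.38 to 0.22, the 25th to 75th percentile of all genes that reached the dim level. Labelled points differ by at least 1, POLH appears in 2 lists, and APOBEC3C is the furthest to the right at 1.88.

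Many repair genes are expressed with S phase, so proliferation genes were read on the same arrays. All 18 with a value reached the dim level, against 9405 of all 14232 genes. By at least 1, 2 were higher in SUDHL6 and 2 in HT. That is 11.1% each way, against 3.50% and 4.62% of all genes. Genes under the dim level could not be counted, so these shares have unlike bases. The median difference was 0.03, against -0.04 for all genes. The ribonucleotide reductase gene RRM2 stood at 11.02 in SUDHL6 and 9.62 in HT, and the replication helicase gene MCM3 at 8.65 in SUDHL6 and 7.52 in HT. The mitotic genes CDC20 and CDK1 stood at 6.51 and 6.33 in SUDHL6, against 7.92 and 7.43 in HT. CDK1 differed by -0.97 after loess. The list as a whole showed no common direction, with 9 positive and 9 negative differences. Among its replication genes, MCM6 (0.80), TYMS (0.21) and MCM4 (0.18) were positive like RRM2 and MCM3. MCM2 (-0.12) and MCM5 (-0.20) were negative. Of the others, CCNA2 (-0.62), AURKA (-0.39), PLK1 (-0.29), CCNB1 (-0.25) and CCNB2 (-0.18) were negative like CDC20 and CDK1. TOP2A (0.47), MKI67 (0.38), AURKB (0.18) and BUB1 (0.18) were positive. Whether S phase relates to the differences of the repair genes was not tested.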

How the data were processed

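Total RNA of SUDHL6 and HT was measured on 1 Affymetrix exon array each, per the labels. The authors deposited log2 values made with RMA in the Affymetrix Expression Console, per the submitters' processing notes. No source used here states versions, settings or the genome build. RMA is known to compress small differences of dim genes. The table held 22011 probe sets. The platform annotation of GEO named 1 gene for 14432 of them, several for 2408 and none for 5171. Symbols were updated by gene number to RefSeq (GRCh38.p14) for 14404 of the 14432 (H2AFX became H2AX, and MRE11A became MRE11). The columns' medians were 4.57 in SUDHL6 and 4.58 in HT, and their sorted values differed by at most 0.152. Of the 22011 probe sets, 681 held the same value on both arrays. The number of arrays limits the precision, and with 1 array per line no test was made.

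Members, lists and thresholds were chosen with earlier results of these data known. All members could be named. From each other list, up to 4 genes with the largest difference of at least 1 were named, or else the 2 with the highest mean. CDKN1A was named after its value was seen. Promoters came from RefSeq (GRCh38.p14). Alternatives changed the scaling, the dim level, the threshold and the choice of probe sets. Python 3.11.15, pandas 2.3.3, numpy 2.4.6 and statsmodels 0.14.6 were used.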

Additional observations from a re-analysis of the deposited data

How the results depend on the processing

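The number of members higher in SUDHL6 was 1 under 10 of 12 alternatives, 4 with a threshold of 0.5 and 0 with a threshold of 2. The number higher in HT was 3 as reported, 1 after quantile normalization, 1 after loess, 7 with a threshold of 0.5 and 0 with a threshold of 2. For the members, the other alternatives gave 3 or, with no filter on dim genes, 4 (XRCC6 was added). Over all genes, in the order of these first 5 settings, 657, 568, 562, 1835 and 154 were higher in HT. In the same order 498, 576, 584, 1233 and 167 were higher in SUDHL6. TP53BP1 and FANCB moved to under 1 after quantile normalization (-0.996 and -0.95) and loess (-0.96 and -0.93). GADD45A stayed between 1.83 and 1.88 and RAD51C between -1.19 and -1.09 under all 10 alternatives run for single genes, of which the 3 scalings could move these values. Each of the 45 members with a value had 1 probe set of its own, so taking the mean or the dimmest probe set could not change their values. Quantile normalization and loess raised the differences of the members by a median of 0.10, and FANCM changed sign under both. The median difference of the members lay between -0.13, where dim values were set to the dim level, and 0.01, after quantile normalization. No paired analysis was possible because each line has 1 array and the labels give no replicate number. For the same reason no array could be left out. Values below the dim level limit what can be said of XRCC6, FANCC and FANCF.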
